A study of Mus musculus with 6 samples.

Results

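The genes of the AP-1 transcription factors and of related immediate early factors were examined in E0771 cells, a mouse mammary carcinoma line, after contact with T cells. They were 10 genes chosen by symbol: Fos, Fosb, Fosl1 and Fosl2 of the Fos family, Jun, Junb and Jund of the Jun family, and Atf3, Egr1 and Myc. Each had 1 row among the 28063 genes of the deposited count table, and 9 of them were among the 14675 genes that passed the filter on low counts. Egr1 did not pass it. The 6 libraries came from 3 populations of E0771 cells with 2 libraries each, which carried a control vector (Vector), wild-type Malt1 (Malt1_WT) or the PD mutant of Malt1 (Malt1_PD), an abbreviation that the labels leave unexplained. All 3 populations, the Vector cells included, had been kept for 12 hours with activated CD8 T cells at 3 effector cells per target cell, then washed, trypsinised and plated again, and RNA was taken 6 hours after plating. The labels give no promoter or clone for the constructs, no culture without T cells was analysed here, and the libraries of a group are not said to come from separate cultures. P-values therefore measure the spread between libraries, which may be technical, and the effect of a construct cannot be told apart from other ways in which the populations differ.

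AP-1 is a dimer of basic leucine zipper proteins. Jun proteins pair with each other or with Fos proteins, whereas Fos proteins need a Jun or related partner to bind DNA. Growth factors, cytokines and stress act through MAP kinases on these genes, and Fos, Fosb, Egr1 and Atf3 are known as immediate early genes whose mRNA rises within minutes and then decays. Fosl1 and Fosl2, which encode FRA1 and FRA2, respond later and are held up by sustained ERK signalling in many carcinoma lines. MALT1 joins CARD proteins and BCL10 in a complex that activates NF-kB and JNK in lymphocytes, and it also cleaves proteins as a paracaspase.

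The libraries held 14045390 to 19962014 counts, so 3 counts, taken as the floor of detection for counting error, stood at 0.150 to 0.214 CPM (counts scaled by the TMM-adjusted library size, the usual unit of level in count data). Malt1 itself had 23.8 and 31.3 CPM without added Malt1, 67.2 and 82.1 CPM with the wild-type form, and 106 and 95.7 CPM with the PD form, in the direction of the labels. Against Vector its log2 fold change was 1.44 ± 0.15 (SE) in Malt1_WT and 1.87 ± 0.15 in Malt1_PD, with edgeR adjusted p (Benjamini-Hochberg) of 0.0920 and 0.0265. Leaving out replicate 1 or 2 of Malt1_PD ended the call (adjusted p = 0.598 and 0.240). The summed level of 12 T cell markers was between 0.21 and 0.80 CPM in every library, and 4 of them (Cd2, Cd3e, Gzmb, Trbc1) had no row. Of the markers listed for carcinoma cells, Krt8 stood at 108 to 124 CPM and Epcam at 6.16 to 8.97 CPM, whereas Cdh1, Krt18, Krt19, Cldn3 and Cldn7 were at 0.60 CPM or below in every library, and Vim at 3776 to 4645 CPM. The log2 difference between replicates followed gene length over 9573 well-counted genes (mean log2 CPM of 3 or more), with a Spearman rho across genes of -0.67 in Vector and -0.53 in Malt1_WT against 0.05 in Malt1_PD. Short genes thus stood higher in replicate 1 than in replicate 2 of the Vector and Malt1_WT pairs. For a gene as short as Jund (1668 nt), the trend amounted to 0.12 log2 units in Vector replicate 1 and -0.08 in Vector replicate 2.

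Per length, the 10 genes covered a range from the most abundant transcripts to the floor of detection. In RNA from whole cultures, fewer cells with a transcript and less of it per cell cannot be told apart. Myc (chromosome 15, 61985391 to 61990374, build GRCm38), the growth-promoting E-box factor, had the highest level. It stood at 189 to 205 RPKM (CPM per kilobase of deposited gene length), above 98.7% to 99.0% of protein-coding genes. Junb followed at 85.5 to 107 RPKM, then Fosl1 at 78.2 to 88.5, Jund at 69.3 to 89.1 and Jun at 48.9 to 58.0 RPKM. Junb was above Fosl1 and Jund in each of the 6 libraries. Fosl1 was above Jund in Malt1_WT and Malt1_PD but below it in Vector. Fosl2 came next at 20.8 to 24.8 RPKM and Atf3 at 8.72 to 13.4 RPKM. Fos lay far lower, at 1.46 to 2.27 RPKM, as did Fosb at 0.284 to 0.583 RPKM. Egr1, the zinc finger factor (chromosome 18, 34859823 to 34864984), was the lowest, with counts of 3 and 4 for Vector, 3 and 3 for Malt1_WT and 4 and 1 for Malt1_PD, at or next to the floor of 3 counts. Differences in Egr1 were not detectable at this depth.

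**Figure D1:**
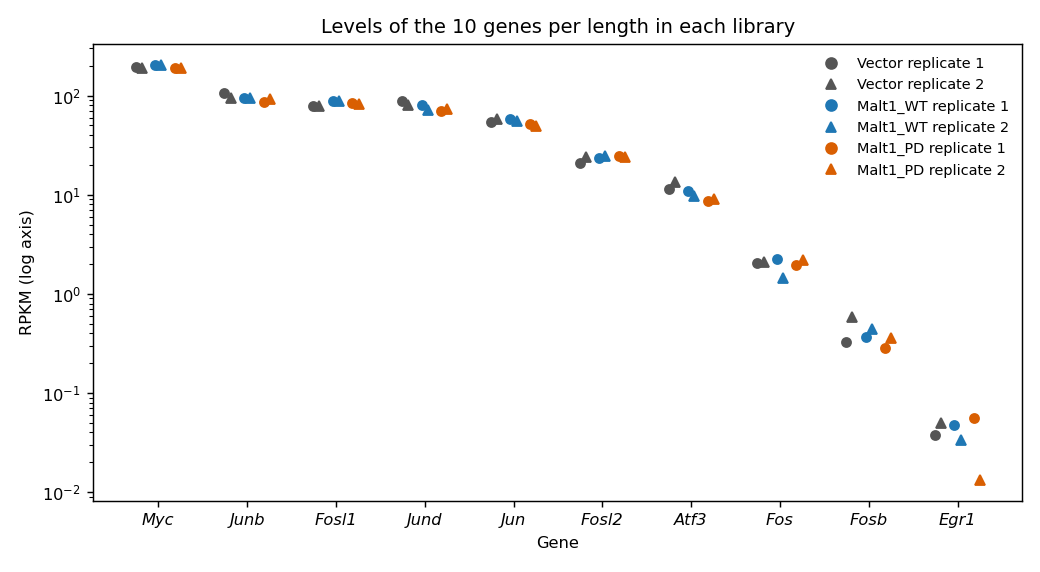
RPKM of the 10 genes (log axis) in each of the 6 libraries, with circles for replicate 1, triangles for replicate 2 and colours for the 3 groups. Myc lies at 189 to 205 RPKM in every library, Fos at 1.46 to 2.27 and Egr1 at no more than 0.056 RPKM.

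Within the Fos family, the summed RPKM was mostly Fosl1. Its share of the family's RPKM was 75.97% ± 1.86 in Vector, 77.2% ± 0.18 in Malt1_WT and 75.6% ± 0.09 in Malt1_PD (SD, n = 2 each). Fosl2 made up 21.6% ± 1.67, 20.9% ± 0.64 and 22.2% ± 0.17 in the same order, and Fos and Fosb together the small rest, with Fos at 2.01% ± 0.02 in Vector and Fosb at 0.44% ± 0.17. In the Jun family the shares were more even, with Junb at 41.8% ± 1.42, Jund at 34.9% ± 0.90 and Jun at 23.2% ± 2.32 in Vector. In Malt1_WT they were 41.5% ± 1.26, 33.5% ± 1.42 and 25.1% ± 0.15, and in Malt1_PD 42.1% ± 0.95, 34.0% ± 0.56 and 23.9% ± 1.51. The group means differed by less than the SD of the Vector pair for Junb and Jun, but by more for Jund. The order within the Fos family turned with the unit. By raw counts Fosl2 held 60.3% of the family's counts in Vector and Fosl1 37.5%. The deposited gene length, by which RPKM divides, was 9680 nt for Fosl2 and 1707 nt for Fosl1, each with 3 annotated transcripts. Which transcripts were expressed was not examined, so the shares by RPKM rest on these lengths.

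The family sums differed from Vector in opposite directions. The summed RPKM of the Fos family was 102 and 105 for Vector, 114 and 115 for Malt1_WT, and 111 and 109 for Malt1_PD. For the Jun family it was 250.5 and 233 in Vector, 232 and 221 in Malt1_WT, and 206 and 214 in the Malt1_PD pair. Neither sum of Malt1_WT or Malt1_PD overlapped with Vector. Of all single genes tested, 32.6% did not overlap in Malt1_WT against Vector and 38.1% in Malt1_PD against Vector. For the Jun family the higher Malt1_WT library (232) was next to Vector replicate 2 (233). The higher Vector library was replicate 1, in which short genes stood higher. Jun family RPKM per Fos family RPKM was 2.45 and 2.23 in Vector, 2.04 and 1.93 in Malt1_WT, and 1.86 and 1.97 in the Malt1_PD pair. No test was made of these sums.

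**Figure D2:**
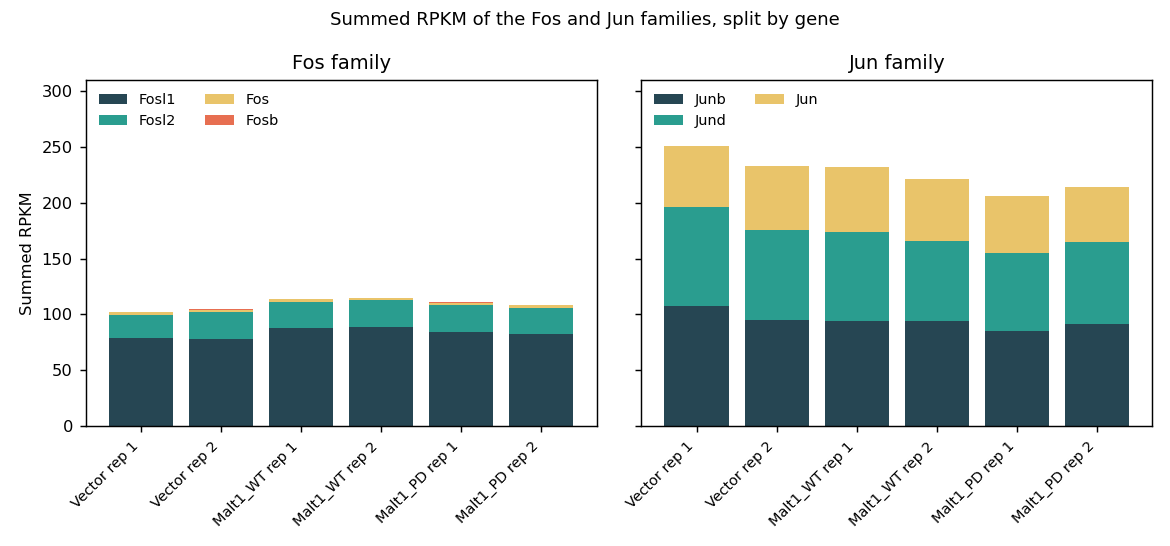
Summed RPKM of the Fos family (left) and the Jun family (right) in each library, split by gene. The Jun family sum runs from 206 to 250.5 RPKM and the Fos family sum from 102 to 115 RPKM, most of it Fosl1.

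Sequence upstream of the start was at hand in RefSeq's table (build GRCm38.p6) for 7 of the 10 genes, Fosl1, Egr1 and Myc not among them. The 120 bases before the RefSeq start are shown for Atf3, Jun, Junb and Fos. Atf3, Jun and Junb have their lowest levels in Malt1_PD and hold a match to a motif, and Fos is a member of low level. Fosb has TGACG 60 bases before its start and is not shown. Its mean was also lowest in Malt1_PD (2.01 CPM, against 2.83 in Vector and 2.51 in Malt1_WT), but its Malt1_PD libraries overlapped with Vector. Jund, also lowest in Malt1_PD, and Fosl2 hold no match to any motif searched and are not shown, and the RefSeq start of Jund lies 1210 bases from its GENCODE start. Capitals mark matches, on either strand, to TGACG, the core of the cyclic AMP response element bound by CREB and ATF dimers, or to TGACATCA, the variant AP-1 and ATF site known from the Jun promoter.
Atf3 (chr1:191183334-191183453, minus strand): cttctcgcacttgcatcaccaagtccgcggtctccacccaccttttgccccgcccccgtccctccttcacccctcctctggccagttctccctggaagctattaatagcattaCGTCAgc
Jun (chr4:95052223-95052342, minus strand): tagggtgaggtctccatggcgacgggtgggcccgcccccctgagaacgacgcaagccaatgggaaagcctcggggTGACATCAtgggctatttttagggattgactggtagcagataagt
Junb (chr8:84978749-84978868, minus strand): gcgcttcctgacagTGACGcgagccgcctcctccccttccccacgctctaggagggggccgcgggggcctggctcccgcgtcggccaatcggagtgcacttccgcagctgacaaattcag
Fos (chr12:85473770-85473889, plus strand): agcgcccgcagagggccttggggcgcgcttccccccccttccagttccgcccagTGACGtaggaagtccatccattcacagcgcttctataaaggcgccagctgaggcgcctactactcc
The match of Atf3 begins 7 bases before the RefSeq start, in a stretch of 7 bases that GENCODE M21 counts to an exon, and this start lies inside the gene, 34706 bases from the start of its longest transcript. The matches of Jun, Junb and Fos begin 45, 106 and 66 bases before theirs, and Fos has a further TGACG at 129 bases. Over the 250 bases upstream, both strands counted, TGACG was found in 17.8% and TGACATCA in 2.93% of the 32851 windows in the table. Neither the full element TGACGTCA (1.55% of windows) nor TGANTCA (6.75%) was found in the windows of the 7 genes. TGACG is also the first part of TGACGTCA. Since TGACATCA is known from the Jun promoter, its match there was given in advance and the 2.93% is no test of it. Atf3, Jun and Junb were chosen by both level and match, so that the 2 going together is no result. A match is a description of letters, with no measure of binding.

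Among the Fos family genes, Fosl1 (chromosome 19, 5447547 to 5455946) had the steadiest replicates. It stood at 135 and 133 CPM in Vector, 150.3 and 151 CPM with Malt1_WT, and 143 and 140.0 CPM in the Malt1_PD pair, so that the 3 groups did not overlap, with Malt1_WT highest and Vector lowest. The log2 fold change of Malt1_WT against Vector was 0.17 ± 0.08 (SE), a 1.12-fold difference with a 95% confidence interval of 0.996 to 1.27, and edgeR's adjusted p (Benjamini-Hochberg) was 0.712. Exons of Fosl1 overlap the gene span of Ccdc85b on the other strand by 1163 bases, summed over all Fosl1 transcripts without merging exons. Since the strand setting of the counting is not given in the sources used here, reads of Fosl1 cannot be fully told apart from those of Ccdc85b. Ccdc85b had 894 to 1225 counts per library against 2111 to 3029 for Fosl1.

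Fosl2 (chromosome 5, 32135801 to 32157842) stood at 202 and 231 CPM in Vector, 225 and 237 CPM with Malt1_WT, and 239.7 and 232 CPM in the Malt1_PD pair. Only Vector replicate 1 lay apart from the other libraries, in the direction of the length trend (-0.14 log2 units there at this gene's length). Its log2 fold change was 0.10 ± 0.09 in Malt1_WT and 0.13 ± 0.09 in Malt1_PD against Vector, and without Vector replicate 1 these were 0.0013 and 0.03.

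Fos (chromosome 12, 85473890 to 85477273), the founding member, had 85 and 89 counts in Vector, 75 and 69 in Malt1_WT, and 72 and 87 in the Malt1_PD pair. In CPM these were 4.79 and 4.99, 5.34 and 3.44, and 4.55 and 5.17. The pair of Malt1_WT libraries spanned all the others, and the fold change of Malt1_WT against Vector went from -0.18 ± 0.25 to 0.13 without Malt1_WT replicate 2. Its 95% confidence interval in the fit of all libraries, 0.596 to 1.31 in fold, leaves differences of such size undetected. Fosb (chromosome 7, 19302696 to 19310051) had 36 and 65 counts in Vector, 32 and 55 in Malt1_WT, and 28 and 38 in the Malt1_PD pair, or 2.03 and 3.64, 2.28 and 2.74, and 1.77 and 2.26 CPM. Vector replicate 2 was the highest, and the log2 fold change of Malt1_PD against Vector, -0.49 ± 0.35, became 0.00026 without that library.

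The 3 Jun family genes had lower levels in Malt1_PD than in Vector, none of them called. Jun (chromosome 4, 95049034 to 95052222), the partner with the strongest transactivation in the family, stood at 173 and 185 CPM in Vector, 185 and 178 CPM with Malt1_WT, and 165 and 156 CPM in the Malt1_PD pair. Malt1_WT overlapped with Vector, and Malt1_PD lay below all 4 other libraries. The log2 fold change was 0.02 ± 0.08 for Malt1_WT against Vector, -0.16 ± 0.08 for Malt1_PD against Vector and 0.18 ± 0.08 for Malt1_WT against Malt1_PD. The last is a 1.13-fold difference with a 95% confidence interval of 0.993 to 1.29, and edgeR's adjusted p (Benjamini-Hochberg) was 0.634 for the second and 1.00 for the last. The antisense gene Junos, which overlaps 689 exonic bases of Jun, had 15 to 40 counts per library, against 2595 to 3567 for Jun.

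Junb (chromosome 8, 84974484 to 84978718), an AP-1 partner that can restrain Jun, stood at 247 and 219 CPM in Vector, 216 and 216 CPM with Malt1_WT, and 197 and 211 CPM in the Malt1_PD pair. All 4 libraries with added Malt1 lay below both Vector libraries, and Malt1_PD below Malt1_WT. Its log2 fold change against Vector was -0.11 ± 0.09 in Malt1_WT and -0.19 ± 0.09 in Malt1_PD. Exons of Junb overlap the gene span of Prdx2 on the other strand by 173 bases, summed in the same way as for Fosl1. Prdx2 is an abundant gene, with 3690 to 5161 counts per library against 3041 to 4386 for Junb. Jund (chromosome 8, 70698949 to 70700616), which is expressed in resting cells, stood at 149 and 133 CPM in Vector, 133 and 119.9 CPM with Malt1_WT, and 116 and 123 CPM in the Malt1_PD pair. Malt1_PD did not overlap with Vector, while Malt1_WT replicate 1 and Vector replicate 2 were level. Its log2 fold change was -0.16 ± 0.10 in Malt1_WT and -0.24 ± 0.10 in Malt1_PD against Vector, and edgeR's adjusted p (Benjamini-Hochberg) for Malt1_PD was 0.548. For both genes Vector replicate 1 was the highest library, where the length trend at their lengths amounted to 0.10 and 0.12 log2 units. With the length trend removed, Junb was at -0.07 and -0.15 and Jund at -0.14 and -0.22 in Malt1_WT and Malt1_PD against Vector. The antisense gene Gm11175, which has no row among the deposited counts, overlaps 919 exonic bases of Jund (gene length 1668 nt).

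Atf3 (chromosome 1, 191170296 to 191218039), a stress-induced factor that pairs with Jun proteins and represses many of its targets, differed most among the well-counted members. It stood at 24.5 and 28.9 CPM in Vector, 23.3 and 20.9 CPM with Malt1_WT, and 18.8 and 19.4 CPM in the Malt1_PD pair, from 297 to 515 counts. The 3 groups did not overlap, with Vector highest and Malt1_PD lowest. The mean was 26.7 ± 3.04 CPM in Vector, 22.1 ± 1.68 CPM in Malt1_WT and 19.1 ± 0.413 CPM in Malt1_PD (SD, n = 2 each). For Malt1_PD against Vector the log2 fold change was -0.48 ± 0.12, or 0.715-fold with a 95% confidence interval of 0.587 to 0.871, and edgeR's adjusted p (Benjamini-Hochberg) was 0.365. It ranked 175 among the 14675 genes by p. Malt1_WT against Vector gave -0.28 ± 0.12 (adjusted p = 0.703) and Malt1_WT against Malt1_PD 0.21 ± 0.13 (adjusted p = 1.00). Over 13 alternative settings, Malt1_PD against Vector stayed between -0.60 and -0.36 with adjusted p between 0.000211 and 1.00. The lowest of these p came from leaving out Vector replicate 1 and Malt1_WT replicate 1 together, the libraries low on long genes, which takes the spread from the Malt1_PD pair alone.

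Myc stood at 526 and 519.8 CPM in Vector, 552 and 557 CPM with Malt1_WT, and 513 and 516 CPM in the Malt1_PD pair, with 7755 to 11167 counts. Malt1_WT lay above the other 4 libraries. The log2 fold change of Malt1_WT was 0.08 ± 0.07 against Vector and 0.11 ± 0.07 against Malt1_PD, the latter a 1.08-fold difference with a 95% confidence interval of 0.966 to 1.20. Malt1_PD against Vector was -0.02 ± 0.07, with an interval of 0.881 to 1.10 in fold.

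**Figure D3:**
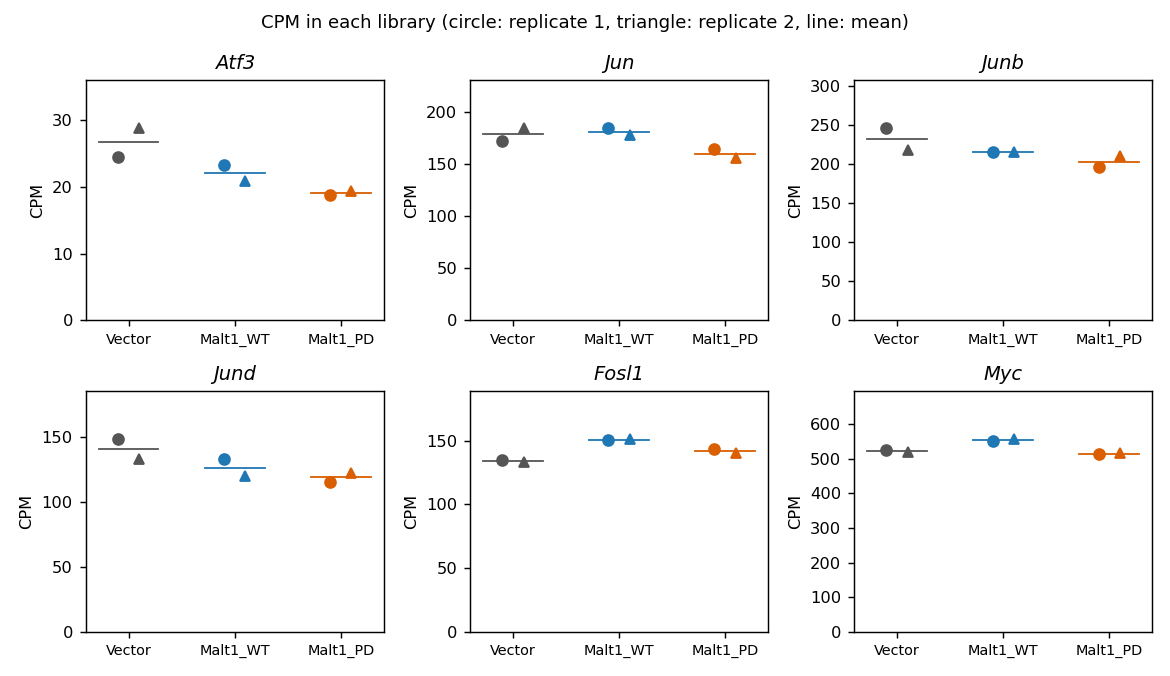
CPM of 6 genes in each library by group (circle for replicate 1, triangle for replicate 2, line for the mean of 2), with axes from 0. Atf3 runs from 28.9 CPM in Vector to 18.8 in Malt1_PD, Jun lies at 165 CPM or below in Malt1_PD and at 173 or above elsewhere, and Fosl1 and Myc are highest in Malt1_WT.

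In Malt1_WT against Vector, Fosl1 (1.12-fold) and Atf3 (0.825-fold) were the tested members with the smallest p. The quasi-likelihood test of edgeR, with Benjamini-Hochberg adjusted p under 0.05 as the call, called 0 of the 9 tested members, against 0.00681% of all genes tested (1 gene, Cd274, which encodes PD-L1). At an unadjusted p under 0.05 the count of members was also 0, against 7.09% of all genes, and DESeq2 called 0 of the 8 members to which it gave an adjusted p (all but Fosb), against 0.253% of its genes. The CPM of Malt1_WT did not overlap with Vector for 2 members that lay higher (Fosl1, Myc) and 3 that lay lower (Junb, Jund, Atf3), while 32.6% of all genes did not overlap, 15.5% higher and 17.1% lower. Jund counts among these by a near tie, with Malt1_WT replicate 1 at 133.32 CPM and Vector replicate 2 at 133.33 CPM. The median log2 fold change of the 9 members was -0.11, beside 0.00 over all genes. All 9 lay between -0.28 and 0.17, and 23.1% of all genes had a larger log2 fold change in size than the largest of them.

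In Malt1_PD against Vector, Atf3, Jund, Junb and Jun were at 0.715-fold, 0.844-fold, 0.874-fold and 0.896-fold. Fosb, with few counts, was at 0.713-fold, Myc at 0.983-fold and Fos at 0.996-fold. Fosl1 and Fosl2 lay higher, at 1.06-fold and 1.09-fold. Again 0 of the 9 members were called by edgeR, against 0.00681% of all genes (1 gene, Malt1), and 0 by DESeq2, against 0.254%. At an unadjusted p under 0.05, 2 members lay lower (Atf3, Jund) and 0 higher, against 8.61% of all genes, 4.88% lower and 3.73% higher. Malt1_PD did not overlap with Vector for 5 members that lay lower (Jun, Junb, Jund, Atf3, Myc) and 2 that lay higher (Fosl1, Fosl2), against 19.7% and 18.4% of all genes (38.1% in either direction). The median of the 9 members was -0.16, beside 0.00 over all genes. All 9 lay between -0.49 and 0.13. A larger log2 fold change in size than that of Fosb, the largest of them, was found in 11.8% of all genes. This comparison uses the same Vector pair as the previous one. Without Vector replicate 1 and Malt1_WT replicate 1, edgeR called 4 members lower (Fosb, Jun, Jund, Atf3), in a fit that called 13.7% of all genes, and 2 members (Fosl1 higher, Atf3 lower) in Malt1_WT against Vector, where it called 6.15%. The summed level of 6 myeloid markers, mostly Cd14, Cd68 and Lyz2, was 22.6 and 19.7 CPM in Vector. It was 16.4 and 18.4 CPM in Malt1_WT and 15.4 and 15.5 in Malt1_PD. Lyz2 was lowest in Malt1_WT, at 3.15 and 2.07, 2.06 and 2.04, and 2.85 and 2.61 CPM in the same order. Itgam and Csf1r were at 0.57 CPM or below in every library, and the macrophage marker Adgre1 at 0.12 CPM or below. Of 5 fibroblast markers, Thy1 had no row. The sum was 164 and 196 CPM in Vector, 189 and 213 with Malt1_WT and 199 and 191 with Malt1_PD. Most of it was Pdgfra, at 123 and 147, 128 and 146, and 136 and 132 CPM in the same order. Within the sum Dcn stood at 9.85 and 12.5 CPM in Vector against 6.05 to 6.90 in the other 4 libraries. Col1a1 stood at 31.0 and 36.4 against 53.0 to 61.3, and Lum at 0.28 or below in every library. The part of these markers in the result was not tested.

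Malt1_WT against Malt1_PD uses no Vector library but shares its own with the other 2 comparisons. Most members lay higher with wild-type Malt1, Atf3 at 1.15-fold and Jun at 1.13-fold, but 0 of the 9 were called by edgeR, against 0.00681% of all genes (Cd274), 0 had an unadjusted p under 0.05, against 1.92% of all genes, and DESeq2 called 0, against 0.00356% of its genes. Without Vector replicate 1 and Malt1_WT replicate 1, 0 members were called, against 2.35% of all genes. In 6 of the 9 members (Fosb, Fosl1, Jun, Junb, Atf3, Myc) both Malt1_WT libraries lay above both Malt1_PD libraries, and in 0 below, against 16.1% and 16% of all genes (32.1% in either direction). Fosb counts among the 6 by a near tie, with Malt1_WT replicate 1 at 2.28 CPM (32 counts) and Malt1_PD replicate 2 at 2.26 CPM (38 counts). The median of the 9 was 0.09, beside 0.00 over all genes, and 14.2% of all genes had a larger log2 fold change in size than the largest of them. That largest value was of Fosb, 0.32 ± 0.35 on 28 to 55 counts.

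**Figure D4:**
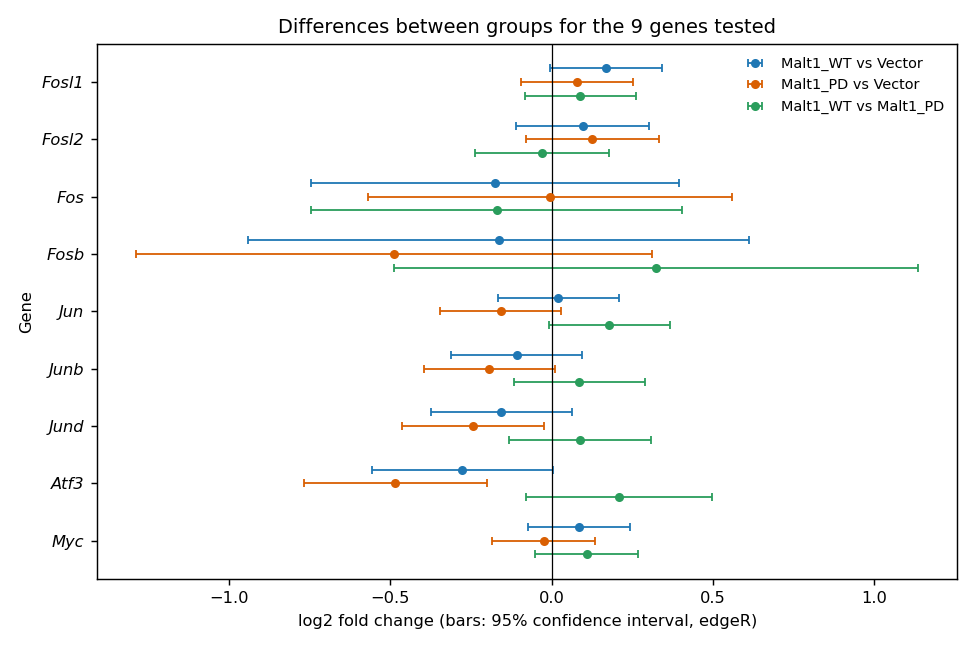
log2 fold change of the 9 tested genes in the 3 comparisons, with bars for the 95% confidence interval from edgeR. Atf3 (-0.48) and Jund (-0.24) in Malt1_PD against Vector are the points whose intervals leave out 0, and Fosb has the widest intervals.

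Other immediate early genes, which are induced by the same signals, numbered 32 tested of 35 listed. In Malt1_WT against Vector 0 were called, while at an unadjusted p under 0.05 the list had 2 genes higher and 4 lower (3.3% and 3.8% of all genes), with a median of -0.06. In Malt1_PD against Vector 0 were called, while 10 lay lower and 0 higher at that level (4.88% and 3.73% of all genes), with a median of -0.16 and 23 of 32 below 0. In Malt1_WT against Malt1_PD 0 were called, 3 lay higher and 0 lower (0.838% and 1.08% of all genes), with a median of 0.11 and 29 of 32 above 0. Hbegf, an EGF receptor ligand, stood at 35.3 and 32.4 CPM in Vector, 25.3 and 26.1 in Malt1_WT, and 22.4 and 22.3 in the Malt1_PD pair. Its log2 fold change was -0.40 ± 0.10 and -0.60 ± 0.10 against Vector in Malt1_WT and Malt1_PD (edgeR, Benjamini-Hochberg adjusted p of 0.404 and 0.155), and it was called under 1 and 4 of the 13 alternatives. Phlda1, a target of ERK signalling, was at 35.7 and 33.8 CPM in Vector, 27.7 and 24.8 in Malt1_WT, and 26.0 and 24.9 in the Malt1_PD pair. Between the Malt1 forms, Cyr61, a matricellular gene under SRF and YAP, stood at 54.6 and 59.9 CPM in Malt1_WT against 45.7 and 48.6 in Malt1_PD, and Zfp36, whose product degrades AU-rich mRNAs such as that of Fos, at 18.0 and 20.0 against 13.8 and 15.7 CPM. Neither was called.

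Genes known as AP-1 targets were tested for all 24 listed, and 0 were called in any of the 3 comparisons. At an unadjusted p under 0.05, 10 lay lower and 0 higher in Malt1_WT against Vector (3.8% and 3.3% of all genes), and 9 lower and 0 higher in Malt1_PD against Vector (4.88% and 3.73%), with medians of -0.14 and -0.18. Mmp3, the stromelysin-1 gene, stood at 23.9 and 20.6 CPM in Vector, 9.82 and 8.33 in Malt1_WT, and 8.48 and 8.50 in the Malt1_PD pair, with log2 fold changes against Vector of -1.30 ± 0.15 and -1.39 ± 0.15 (edgeR, Benjamini-Hochberg adjusted p of 0.0920 and 0.0629). Spp1, the osteopontin gene, stood at 3445 and 3120 CPM in Vector and 2413 and 2276 in Malt1_WT (-0.49 ± 0.07). Il6, an inflammatory cytokine gene, stood at 37.7 and 30.5 CPM in Vector, 21.6 and 18.3 in Malt1_WT, and 14.2 and 16.5 in the Malt1_PD pair, with -1.15 ± 0.15 in Malt1_PD against Vector and 0.37 ± 0.15 in Malt1_WT against Malt1_PD. Plau, the urokinase gene, stood at 12.6 and 11.3 CPM in Malt1_WT against 8.60 and 8.62 in Malt1_PD (0.47 ± 0.16). In that last comparison an unadjusted p under 0.05 was reached by 2 of the 24 above 0 and 1 below (0.838% and 1.08% of all genes), with a median of 0.04. Under the 13 alternatives, Mmp3 was called lower in 7 in each comparison with Vector, Spp1 in 6 in Malt1_WT against Vector and Il6 in 7 in Malt1_PD against Vector. All lists were drawn up with earlier results of these data known, so that their direction is no independent evidence.

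Dimer partners and upstream genes were also examined. Of 15 tested genes of other basic leucine zipper partners, 0 were called, and 2 lay lower at an unadjusted p under 0.05 in Malt1_PD against Vector (4.88% of all genes), Jdp2, a repressor that pairs with Jun (38.7 and 34.7 CPM in Vector, 30.8 and 29.1 in Malt1_PD), and Crem, a cyclic AMP-responsive factor (7.54 and 6.95 against 4.68 and 5.65 CPM). Jdp2 had -0.20 ± 0.10 and Creb5 -0.29 ± 0.13 in Malt1_WT against Vector, and Crem 0.36 ± 0.19 in Malt1_WT against Malt1_PD. The 24 tested MAP kinase pathway and SRF-TCF genes, which drive Fos and Egr1 transcription, had medians of 0.01, -0.02 and 0.00 in the 3 comparisons, with 0 called. Map2k6, a p38 kinase kinase, stood at 6.47 and 7.23 CPM in Vector and 4.13 and 4.54 in Malt1_WT (-0.65 ± 0.18), and Rps6ka5, the gene of the histone kinase MSK1, at 4.48 and 6.43 CPM in Malt1_WT against 7.21 and 8.56 in Malt1_PD (-0.51 ± 0.21). The 11 genes of the ATF4 stress arm, which induces Atf3, had medians of -0.06, -0.11 and 0.04 with 0 called. Ddit3, which encodes CHOP, stood at 19.6 and 16.2 CPM in Vector, 12.7 and 14.2 in Malt1_WT, and 14.6 and 11.6 in the Malt1_PD pair, and Chac1 at 15.3 and 14.6, 10.5 and 11.3, and 11.3 and 11.5 CPM.

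Around Myc, the 12 tested partners and antagonists had medians of 0.07, 0.00 and 0.04, and 0 were called. Mxd1, a MAX partner that opposes MYC, stood at 11.7 and 12.3 CPM in Vector, 11.7 and 10.5 in Malt1_WT, and 8.67 and 7.84 in the Malt1_PD pair, a log2 fold change of -0.54 ± 0.15 in Malt1_PD against Vector and 0.42 ± 0.15 in Malt1_WT against Malt1_PD. Mxd4, of the same group, went the other way against Vector, at 27.2 and 27.5 CPM there, 31.3 and 32.9 in Malt1_WT, and 31.5 and 33.2 in the Malt1_PD pair. The 22 MYC target genes had medians of -0.03, -0.02 and -0.02, and 0 were called. Odc1, the ornithine decarboxylase gene of polyamine synthesis, stood at 2091 and 1879 CPM in Vector, 1562 and 1471 in Malt1_WT, and 1438 and 1449 in the Malt1_PD pair. Its log2 fold change was -0.39 ± 0.08 in Malt1_WT and -0.46 ± 0.08 in Malt1_PD against Vector (edgeR, Benjamini-Hochberg adjusted p of 0.263 and 0.155), and it was called under 4 and 6 of the 13 alternatives.

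**Figure D5:**
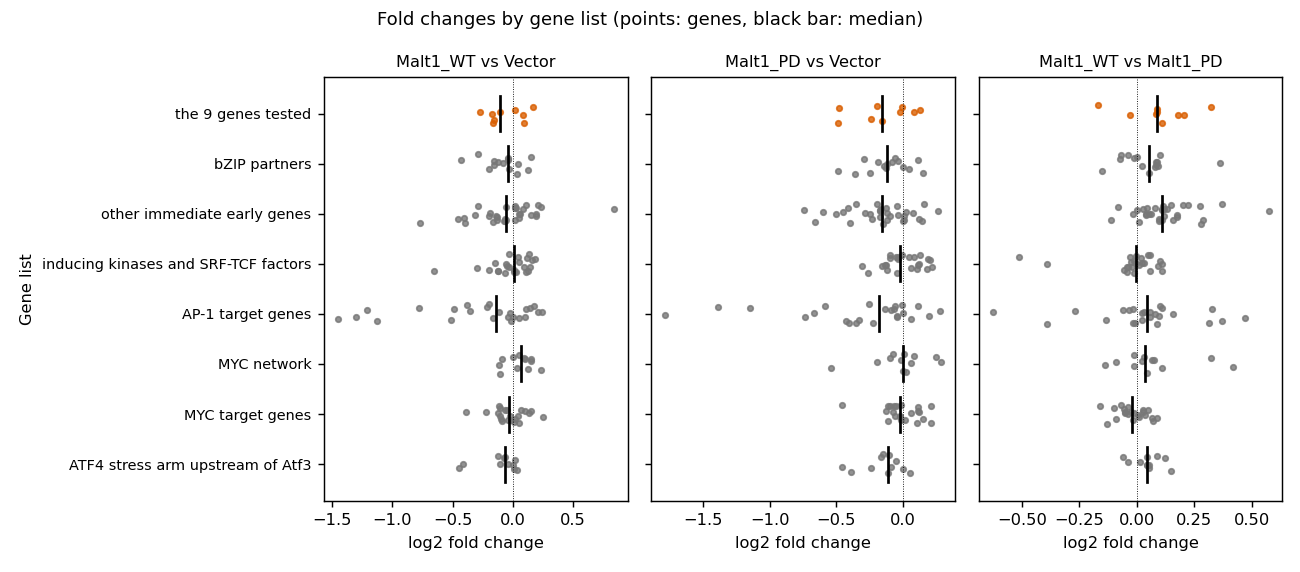
log2 fold changes of the 9 tested genes and of 7 related gene lists in the 3 comparisons (each point a gene, black bar the median). In Malt1_PD against Vector the medians of the 9 genes (-0.16), of the other immediate early genes (-0.16) and of the AP-1 targets (-0.18) lie below 0, and that of the MYC targets is -0.02.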

How the data were processed

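Per the labels' protocols, directional libraries of total RNA were read in pairs of 150 bases. The authors deposited whole-number counts per gene, not normalised, per the file headers. The submitters' processing notes list Trim Galore 0.6.0, STAR 2.7.3a, featureCounts 1.6.3 and GRCm38.p6. Whether counting used strand is not given in the sources used here. The 6 log2 RPKM columns were not used, since names among them are repeated.

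The model was edgeR 4.0.16 under R 4.3.3 (TMM, filterByExpr by group, glmQLFit and glmQLFTest, 1 mean per group, all 6 libraries, 3 residual degrees of freedom), with Benjamini-Hochberg adjustment over the 14675 genes tested and a threshold of 0.05. The common dispersion was 0.0101. The standard error (SE) of a log2 fold change came from the quasi-likelihood F, and intervals are at 95%. RPKM divides CPM by the deposited gene length. Fits were tested on simulated data. Alternatives were DESeq2 size factors, no filter, DESeq2 1.42.0, the 2 groups alone, a replicate block, removal of each library's trend with gene length, and libraries left out. Coordinates are from GENCODE M21, which matched 28056 of 28063 identifiers without version. The text names all 10 genes, Malt1, and of each related list some of the up to 2 tested members with the smallest p in a comparison. Cd274 was named after its values were seen. The members, lists and alternatives were chosen with earlier results of these data known.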

Additional observations from a re-analysis of the deposited data

How the results depend on the processing

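Of 351 values of the 9 tested members under the alternatives, 332 kept their direction and their side of the threshold, 6 passed the threshold and 13 changed sign. The 6 all came from leaving out Vector replicate 1 and Malt1_WT replicate 1 together, where 2 members were called in Malt1_WT against Vector (Fosl1 higher, Atf3 lower, with adjusted p of 0.0440 and 0.0396) and 4 in Malt1_PD against Vector. No other alternative called a member. Leaving out 1 library at a time, Fos ranged from -0.50 to 0.13 in Malt1_WT against Vector, from -0.10 to 0.079 in Malt1_PD against Vector and from -0.50 to 0.13 in Malt1_WT against Malt1_PD. Fosb ranged from -0.52 to 0.32 and from -0.85 to 0.00026 against Vector, Jun from -0.031 to 0.075 in Malt1_WT against Vector, and Fosl2 from -0.069 to 0.0057 between the forms. With the length trend removed, Fos was at 0.036 and Myc at 0.012 in Malt1_PD against Vector. Without Vector replicate 1 and Malt1_WT replicate 1, Jun was at -0.056 in Malt1_WT against Vector and Fosl2 at 0.0059 between the forms. The cause was not tested.

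The count of called genes, 1 in each comparison, depended on the setting. In Malt1_WT against Vector it was 113 without a filter, 6 with the replicate block, 55 with the length trend removed, 27 by DESeq2, 936 without both libraries named above, and 1 to 599 leaving out 1 library at a time (599 without Vector replicate 2, 50 without Vector replicate 1). In Malt1_PD against Vector it was 188, 9, 87, 34 and 2080 in that order, and 0 to 928 leaving out 1 library (928 and 111 without Vector replicate 2 and 1, and 0 without either Malt1_PD library). Between the forms it was 12 without a filter, 358 without both libraries, and 1 leaving out any 1 library. Nothing in the labels says that a replicate number marks a shared culture or day. Across genes, the difference of replicate 1 from replicate 2 had a Pearson r of 0.68 between Vector and Malt1_WT, -0.01 between Vector and Malt1_PD and 0.03 between the forms. The replicate block called 0 members in every comparison. The order within the Fos family by share turned when counts replaced RPKM. With 69 to 89 counts for Fos, 28 to 65 for Fosb and 1 to 4 for Egr1, depth limits what can be read for these 3 genes.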
